A study of Mus musculus with 5 samples.

Results

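SWI/SNF, ISWI, CHD and INO80 genes encode the ATP-dependent chromatin remodelers and their core subunits, and 35 of the 19938 genes measured with a probe set of 1 symbol fell under the rule used here. The rule took symbols beginning with Smarc or Ino80, *Chd1* to *Chd9*, and *Hells*, *Atrx*, *Srcap*, *Pbrm1*, *Brd7*, *Brd9*, *Bptf*, *Ruvbl1* and *Ruvbl2*, with ARID genes left out. It works on symbols and holds no expression threshold, but it was chosen with earlier results of these data known. Remodelers use the energy of ATP to slide, evict or exchange nucleosomes. SWI/SNF complexes mainly open chromatin at promoters and enhancers, ISWI enzymes space nucleosomes into regular arrays, CHD proteins include the ATPase subunits of the NuRD deacetylase complex, and INO80 and SRCAP handle the histone variant H2A.Z. SWI/SNF subunits are among the chromatin genes most often altered in cancer.

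6DT1 is a mouse mammary carcinoma cell line, and the study asked what knockdown of *Arid4b*, a subunit of the SIN3 histone deacetylase complex, does to gene expression in it. Each of 5 lines gave 1 Affymetrix Mouse Gene 1.0 ST array. H3 and H4 carried lentiviral pLKO.1 short hairpins against *Arid4b* and made up the knockdown cohort (n = 2). The control cohort (n = 3) held H5, whose *Arid4b* hairpin did not deplete the protein, a scrambled hairpin and untransduced cells. The 4 transduced lines were pools of cells selected in 10 µg/ml puromycin, whereas untransduced cells were not selected. By densitometry, ARID4B protein stood at 0.19 of the scrambled level in H3 and at 0.15 in H4, compared with 1.02 for H5, 1.00 for scrambled and 1.09 for untransduced cells. In the control lines *Arid4b* mRNA stood at 8.31 ± 0.06 (SD, n = 3), and H3 had 6.88 and H4 7.35, a log2 difference of -1.20 with SE 0.15. All expression values are log2 values that the authors normalized, and a difference is the knockdown mean minus the control mean. Each line was arrayed once, so the p-values reflect how far single lines vary, and that variation may be technical. The median of all probe sets was 6.35 in H3 and 6.24 to 6.25 in the other lines, and the SD over probe sets was 2.25 in H3 against 2.29 to 2.30. Among 5 mammary epithelial or carcinoma markers, *Krt8* lay between 11.8 and 12.3 and *Krt18* between 11.6 and 11.7 in every line. *Krt19* varied more, with its lowest value (7.26) in H4 and its highest (8.35) in untransduced cells. Its difference was -0.52. For *Krt8*, *Krt18* and *Krt19* alike, H4 lay below every control line and H3 did not. *Epcam* (5.61 to 5.75) and *Cdh1* (6.05 to 6.16) lay below the array medians.

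Most remodeler genes differed between the cohorts by no more than the lines differed within them. With limma and the study's own threshold, an unadjusted p under 0.05, *Hells*, *Smarca5*, *Chd3* and *Ino80c* were lower in the knockdown lines and *Ino80b* was higher. The 4 lower genes were 11.4% of the 35, beside 7.61% of all genes, and the 1 higher gene was 2.86%, beside 4.34% of all genes. The 4 lower genes became 9 (25.7%) without scrambled cells, beside 8.005% of all genes. Without H3 or H4 the fit rests on a single knockdown array, so sizes are given. The median difference of the 35 genes was -0.0335 without H3, beside 0.006 over all genes. It was -0.171 without H4, beside 0.04. The share of lower remodeler genes was therefore near the background with all lines and depended on which lines were included. The genes that came to pass the test without scrambled cells were *Brd9*, *Ruvbl1*, *Smarcb1*, *Smarcd1* and *Smarce1*. The sign of the difference turned in 2 genes without H3, *Atrx* and *Bptf*. It turned in 6 without H4, namely *Chd1*, *Chd6*, *Chd8*, *Chd9*, *Ino80d* and *Smarca2*. No remodeler gene passed an adjusted p under 0.05 in limma, the lowest value being 0.294, and none of the 19938 genes did, of which 2383 passed unadjusted. Without H4, 1266 genes passed the adjusted threshold, and 3 did in the unmoderated test and 4 without the dimmest genes. Without the dimmest genes, the lowest 1 in 3 by mean, 34 members stayed, of which 6 were lower beside 11.3% of all genes and 1 was higher beside 4.54%. The median difference over the 35 genes was -0.09, beside 0.03 over all genes. The differences of 15 genes (42.9%) were within 0.1 on the log2 scale, beside 49.8% of all genes. Those of 29 were within 0.3, beside 17529 of the 19938 genes. The median 95% interval reached 0.258 to either side of its estimate, so changes smaller than that could not be resolved for a typical remodeler gene.

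**Figure D1:**
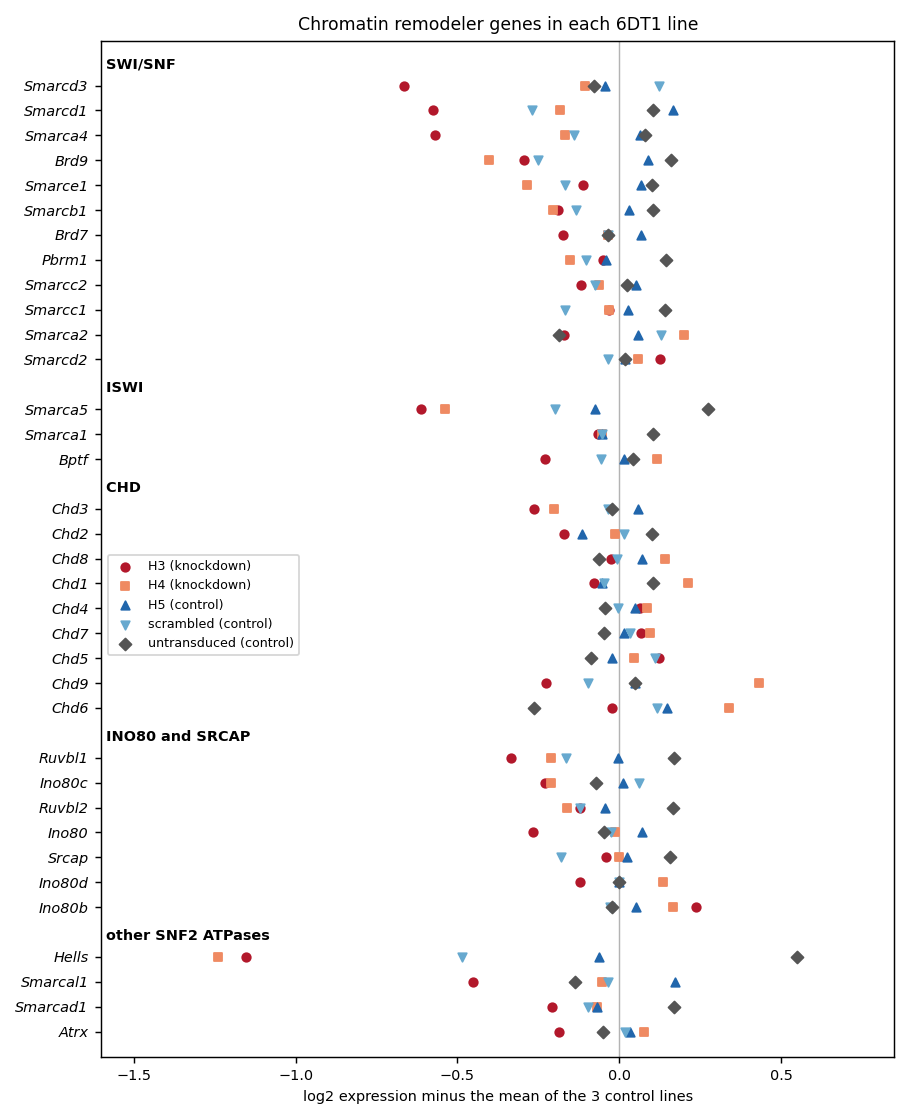
Log2 expression of the 35 remodeler genes in each line, plotted horizontally relative to the control mean (n = 3) and grouped by family on the vertical axis with 1 symbol per line. *Hells* and *Smarca5* stand apart to the left in both knockdown lines, while most other points lie within 0.3 of the control mean.

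Among the SNF2 ATPases outside the named complexes, *Hells* had the largest difference of all 35 genes. HELLS (LSH) remodels nucleosomes with CDCA7 and is needed for DNA methylation of repeats. *Hells* was 7.64 in H3 and 7.56 in H4, and 8.73 in H5, 8.31 in scrambled and 9.35 in untransduced cells. Both knockdown lines lay below every control line, and the controls themselves spanned more than 1 log2 unit, with scrambled cells lowest and untransduced cells highest. The difference was -1.20 (SE 0.318, 95% interval -2.04 to -0.36, limma adjusted p = 0.328), so the knockdown mean was 43.7% of the control mean. When untransduced cells were left out, the *Hells* difference was -0.92. Without H3 it was -1.24 and without H4 -1.15, and neither passed the test, nor did *Hells* in an unmoderated test or with array weights.

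The promoter of *Hells* is shown because it holds, within the 250 bases before the RefSeq start site, 1 of the E2F-type motifs that were searched for. On assembly GRCm38.p6 this window is chr19:38930740-38930989 on the plus strand. The motif is in capitals, and its first base lies 62 bases before the start site.

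Hells: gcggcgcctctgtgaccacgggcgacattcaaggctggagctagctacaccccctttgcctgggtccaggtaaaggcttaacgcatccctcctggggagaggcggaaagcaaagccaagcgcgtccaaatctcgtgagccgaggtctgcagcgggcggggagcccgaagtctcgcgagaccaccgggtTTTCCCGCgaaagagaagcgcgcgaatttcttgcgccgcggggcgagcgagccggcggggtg

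The motifs searched on both strands were TTTCCCGC, TTTGGCGC, TTTCGCGC and TTTGCCGC. Of the 35 genes, 28 had a window in RefSeq, and 3 of these (10.7%) held a motif, beside 2.88% of the 15614 genes on the array with a window. The others were *Brd7* and *Smarcd1*, and their stretches around the motif are given beside that of *Hells* to show the letters they share.

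Hells: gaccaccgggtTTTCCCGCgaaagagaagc
Brd7: ggcggcctctcTTTCCCGCtggtttgccgg
Smarcd1: gtcagcacgccTTTCCCGCtagtcgccccc

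The *Brd7* motif began 28 bases and the *Smarcd1* motif 131 bases before the start site, in windows at chr8:88362173-88362422 on the minus strand and chr15:99702037-99702286 on the plus strand. Neither gene passed the test, with differences of -0.10 for *Brd7* and -0.38 for *Smarcd1*. The windows of *Smarca5* and *Ino80b* held none of these letters. A match is a description of the letters and not a binding site.

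The other 3 ATPases of this kind did not pass the test. *Smarcal1*, which rewinds and restarts stalled replication forks, had values of 8.09 in H3 and 8.49 in H4, and of 8.71 in H5, 8.51 in scrambled and 8.41 in untransduced cells. H3 lay below all controls, whereas H4 lay among them. *Smarcad1*, which acts in heterochromatin maintenance and DNA end resection, differed by -0.14, and *Atrx*, which deposits H3.3 at repeats with DAXX, by -0.05. *Atrx* took opposite signs in the knockdown lines, at -0.19 without H4 and 0.08 without H3.

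ISWI was represented by 3 genes. *Smarca5* encodes SNF2H, the ISWI ATPase of most proliferating cells. Its level was 8.78 in H3 and 8.85 in H4, and 9.32 in H5, 9.19 in scrambled and 9.66 in untransduced cells. Neither knockdown line reached the lowest control, again with scrambled lowest and untransduced highest among the controls. The difference was -0.57 (SE 0.154, 95% interval -0.98 to -0.17, limma adjusted p = 0.330), or 67.2% of the control mean, and it was -0.44 without untransduced cells. It did not pass the test without H3 (-0.54) or H4 (-0.61), in the unmoderated test or with array weights. *Smarca1*, the paralog SNF2L, was between 4.10 and 4.27, below the array medians, with 1 value repeated on 3 arrays. *Bptf*, the large subunit of NURF, was 8.61 in H3 and 8.96 in H4 and between 8.78 and 8.88 in the controls, so the knockdown lines lay on opposite sides of them. Its difference was -0.23 without H4 and 0.12 without H3.

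**Figure D2:**
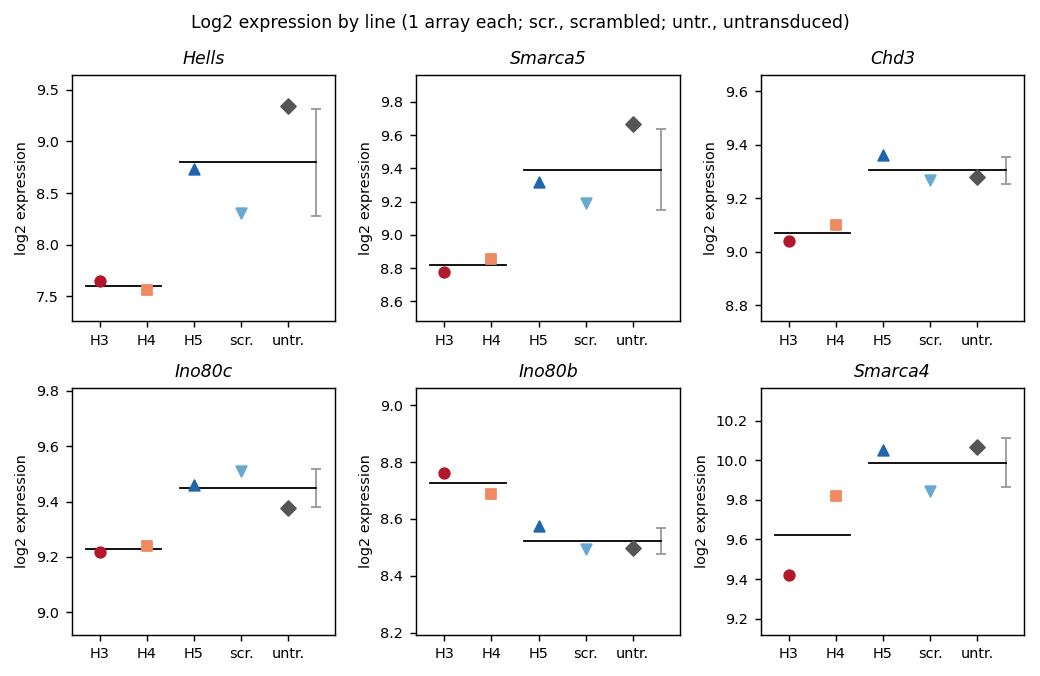
Log2 expression by line for the 5 remodeler genes at an unadjusted p under 0.05 and for *Smarca4*, 1 panel per gene with its own vertical axis, where black lines are cohort means and the grey bar is the SD of the 3 control lines. The knockdown lines sit below all controls in 5 panels and above them for *Ino80b*, and the control spread is widest for *Hells* (SD 0.52).

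The CHD family had small differences. *Chd3*, an ATPase of NuRD, was 9.04 in H3 and 9.10 in H4, compared with 9.36 in H5, 9.27 in scrambled and 9.28 in untransduced cells. H3 and H4 lay below the controls, which were close together at 9.30 ± 0.05 (SD, n = 3). The difference was -0.23 (SE 0.0521, 95% interval -0.37 to -0.10, limma adjusted p = 0.294), or 85.1% of the control mean. *Chd4*, its paralog and the other main NuRD ATPase, was 10.47 in H3 and 10.49 in H4 against 10.45, 10.40 and 10.36 in H5, scrambled and untransduced cells. H3 and H4 were above all controls, but *Chd4* did not pass the test, with a 95% interval of -0.05 to 0.20. Within a line, *Chd4* minus *Chd3* was 1.43 in H3 and 1.39 in H4 and between 1.08 and 1.13 in the controls. That pair was chosen after the values were seen and was not tested, and because the probe sets differ, only the shift between lines can be read from it. Other pairs were also computed. Both knockdown lines lay above all controls for *Ino80b* minus *Ino80c* (shift 0.42) and *Ruvbl2* minus *Ruvbl1* (0.13). They lay below for *Smarca4* minus *Smarca2* (-0.38) and *Smarca5* minus *Smarca1* (-0.52). They did neither for *Smarcc1* minus *Smarcc2* or *Brd9* minus *Brd7*.

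The other 7 CHD genes did not pass the test. *Chd7*, which is mutated in CHARGE syndrome, was 9.66 in H3 and 9.69 in H4 and between 9.55 and 9.63 in the controls. The array held 30 probe sets of *Chd7*, of which 25 had a positive difference, with a median of 0.09 and a range of -0.10 to 0.39. The 30 probe sets read 1 gene and are not replicates. *Chd9* was 7.68 in H3 and 8.34 in H4, outside the controls (7.81 to 7.95) on opposite sides. Its difference was 0.10 with all lines, 0.43 without H3 and -0.23 without H4. *Chd6* was 8.06 in H3 and 8.42 in H4, whereas its controls ranged from 7.82 to 8.23. *Chd1*, which remodels nucleosomes behind elongating polymerase, *Chd2*, *Chd5* and the beta-catenin inhibitor *Chd8* differed by -0.09 to 0.08. The differences were negative for 2 of the 9 CHD genes (22.2%), beside 38.7% of all genes. The CHD count was also 2 with array medians subtracted and after quantile normalization.

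In the INO80 and SRCAP complexes 1 of the 7 genes (14.3%) was lower, beside 7.61% of all genes, and 1 (14.3%) was higher, beside 4.34%. *Ino80c* encodes the IES6 subunit of INO80. Its level was 9.22 in H3 and 9.24 in H4, compared with 9.46 in H5, 9.51 in scrambled and 9.38 in untransduced cells. Both knockdown lines lay below all controls, and the difference was -0.22 (SE 0.056, 95% interval -0.37 to -0.07, limma adjusted p = 0.317), or 85.8% of the control mean. It did not pass after quantile normalization or without H3 (-0.21). *Ino80b*, the IES2 subunit, was 8.76 in H3 and 8.69 in H4, compared with 8.58 in H5, 8.49 in scrambled and 8.50 in untransduced cells. The knockdown lines were above every control, and the difference was 0.20 (SE 0.0515, 95% interval 0.07 to 0.34, limma adjusted p = 0.317), or 115% of the control mean. *Ino80b* did not pass with the trend and robust options of limma or with array weights.

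The other 5 genes of these complexes did not pass the test. The ATPase *Ino80* itself was 9.11 in H3 and 9.36 in H4 against 9.33 to 9.45 in the controls, so only H3 lay below them. The AAA+ ATPases *Ruvbl1* and *Ruvbl2*, which form the ring shared by INO80, SRCAP and TIP60, differed by -0.27 and -0.14, with both knockdown lines below all controls for each. *Ruvbl1* was 9.91 in H3 and 10.03 in H4 against 10.24, 10.08 and 10.41 in H5, scrambled and untransduced cells, so H4 and scrambled cells were close, and for *Ruvbl2* H3 and scrambled cells both stood at 10.22 to 2 decimals. *Srcap*, the ATPase that loads H2A.Z, differed by -0.02. *Ino80d* had the same value, 8.88, in all 3 control lines and was 8.76 in H3 and 9.01 in H4.

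None of the 12 SWI/SNF genes passed the test with all lines, beside 7.61% of all genes lower and 4.34% higher. *Smarca4* (BRG1), 1 of the 2 alternative ATPases, was 9.42 in H3 and 9.82 in H4, compared with 10.05 in H5, 9.85 in scrambled and 10.07 in untransduced cells. H3 lay well below the controls, whereas H4 was just below scrambled cells, and the difference was -0.37 (SE 0.147, 95% interval -0.76 to 0.02, limma adjusted p = 0.436). The other ATPase, *Smarca2* (BRM), was 7.61 in H3 and 7.98 in H4 against 7.60 to 7.91 in the controls. Its difference was 0.01 with a 95% interval of -0.39 to 0.42.

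Of the core subunits, *Smarcb1* (SNF5), the rhabdoid tumour suppressor, was 9.64 in H3 and 9.62 in H4 against 9.86, 9.69 and 9.93 in H5, scrambled and untransduced cells. Both knockdown lines lay below all controls, and the 95% interval of the difference was -0.42 to 0.02. *Brd9*, which marks the non-canonical complex, was 7.89 in H3 and 7.79 in H4 against 8.28, 7.94 and 8.35, with H3 close to scrambled cells and a difference of -0.35. Without scrambled cells *Brd9* (-0.47) and *Smarcb1* (-0.26) passed the test. The scaffold subunits *Smarcc1* and *Smarcc2* differed by -0.03 and -0.09, and *Pbrm1* and *Brd7* of the PBAF complex by -0.10 each. The 2 probe sets of *Pbrm1* that were not used differed by -0.20 and -0.14, with both knockdown lines below all controls. *Smarcd1* and *Smarcd3*, alternative subunits of the same position, each differed by -0.38. *Smarcd1* was 8.51 in H3 and 8.90 in H4 with controls from 8.82 to 9.25, and its difference was -0.57 without H4 and -0.18 without H3. *Smarcd3* was 6.54 in H3 and 7.10 in H4 with controls from 7.12 to 7.32, and its difference was -0.66 without H4 and -0.10 without H3. H3 was thus the low line for both genes. *Smarcd2* differed by 0.09, with both knockdown lines above all controls. *Smarce1* differed by -0.20. Its probe set has an ID among those of chromosome 8 genes, although the gene lies on chromosome 11 and RefSeq lists a *Smarce1* pseudogene on chromosome 8. All 3 probe sets of the symbol differed alike, by -0.21 to -0.20, and which copy they read was not tested. In all, 10 of the 12 SWI/SNF differences (83.3%) were negative, beside 38.7% of all genes, a share not taken over genes of like level. With array medians subtracted 11 were negative, and after quantile normalization 9. The median difference over all genes was -0.01 and 0.03 in those 2 settings.

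**Figure D3:**
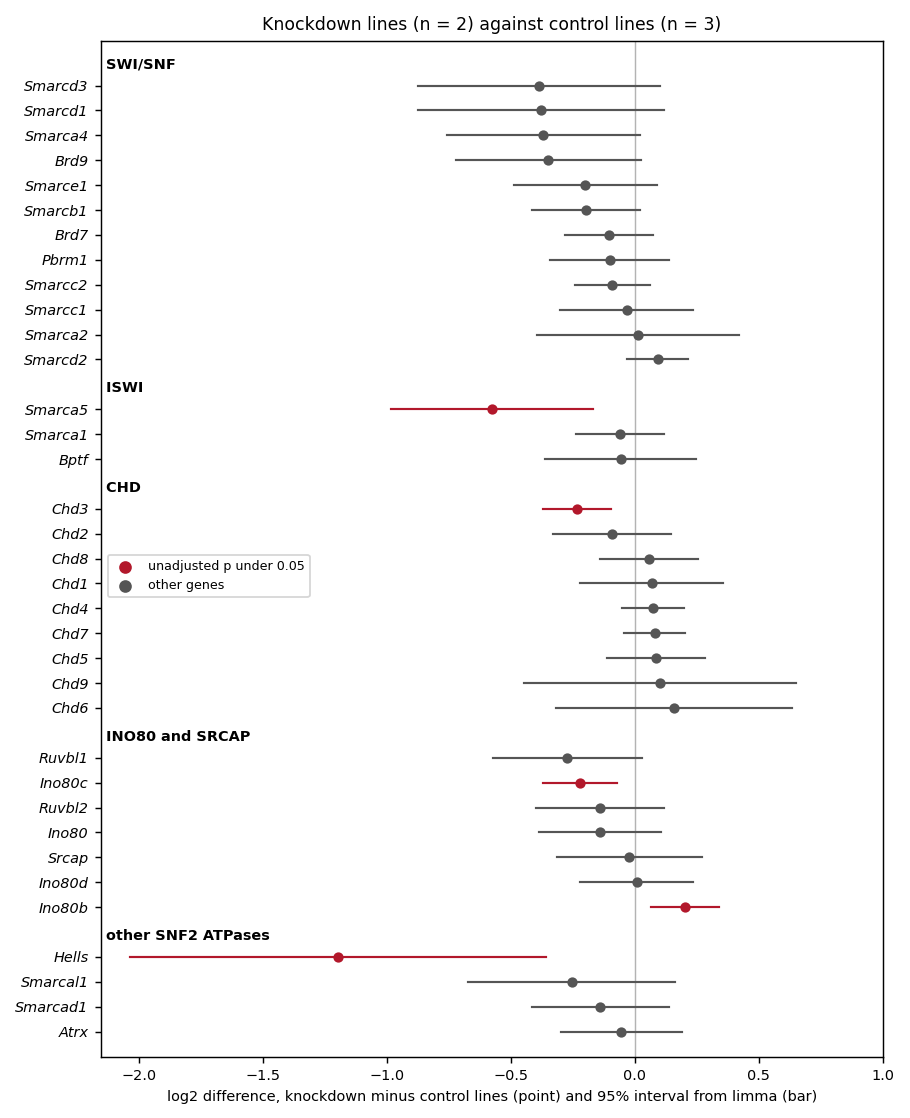
Log2 difference between knockdown (n = 2) and control (n = 3) lines for each remodeler gene on the horizontal axis, with its 95% interval from limma as the bar and genes at an unadjusted p under 0.05 in red. The intervals of 30 of the 35 genes include 0, and that of *Hells* is the widest (-2.04 to -0.36).

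The knockdown lines were not alike across these genes. Both lines lay below all 3 controls in 10 of the 35 genes (28.6%), beside 13.5% of all genes, and both lay above in 4 (11.4%), beside 13.9%. H3, with or without H4, was below all controls in 23 genes, 13 of them without H4, beside 26.6% of all genes, and above in 5, beside 46.9%. H4 was below in 12 genes, beside 27.7% of all genes, and above in 12, beside 25.7%. The H3 array had a higher median and a narrower spread than the rest, and after quantile normalization, tried once this had been seen, H3 was below all controls in 13 remodeler genes, beside 27.2% of all genes, and above in 5, beside 45.5%. H4 was then below in 12, beside 24.3%, and above in 12, beside 35.6%. H3 was lower than H4 in 25 of the 35 genes (71.4%), beside 36.7% of all genes. These line counts were not set against genes of like level. Without the dimmest 1 in 3 genes 34 of the 35 members stayed, so the members were brighter than all genes as a set. The median of the 35 genes relative to the control mean was -0.17 in H3 and -0.03 in H4, and after quantile normalization the median difference was -0.03 in place of -0.09. H3 minus H4 was 0.09 for *Hells* and -0.07 for *Smarca5*, the latter at the median of the 35 genes.

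The control lines also differed. Scrambled cells were the lowest control in 19 of the 35 genes (54.3%), beside 34.2% of all genes, and untransduced cells were the highest in 16 (45.7%), beside 31.8%. No line was arrayed again, so these differences between single arrays were not tested.

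Genes of replication and proliferation were mostly lower in the knockdown lines, as *Hells* and *Smarca5* were, and their part in the remodeler result was not tested. Of 16 such genes, 15 (93.8%) were lower in the knockdown lines, beside 7.61% of all genes, and none was higher, beside 4.34%, with a median difference of -0.75. *Rrm2*, the regulatory subunit of ribonucleotide reductase, was 10.80 in H3 and 9.96 in H4, whereas the controls were at 11.46 ± 0.24 (SD, n = 3), and *Mki67* was 10.04 and 9.29 against 10.63 ± 0.10 (SD, n = 3). *Tyms* differed by -1.02 and *Top2a* by -0.93. Scrambled cells were the lowest control in all 16 genes, as they were for *Hells* and *Smarca5*. H4 was below H3 in all 16 genes, with list medians of -0.97 in H4 and -0.46 in H3, whereas *Hells* and *Smarca5* had nearly the same level in H3 and H4.

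Partners of HELLS and ATRX were lower in 2 of the 10 measured (20.0%), beside 7.61% of all genes. These were *Uhrf1*, which reads hemimethylated DNA, at 9.62 in H3 and 8.89 in H4 with controls at 10.10 ± 0.33 (SD, n = 3), and the maintenance methyltransferase *Dnmt1*, which differed by -0.64. H4 minus H3 was larger in size for *Uhrf1* and *Dnmt1* than for *Hells*, though H4 was the lower line for all of them.

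Of 12 other SNF2-family ATPases, 7 (58.3%) were lower, beside 7.61% of all genes, and none was higher, beside 4.34%, with a median difference of -0.44. *Ercc6l* (PICH), a translocase of mitotic chromosomes, differed by -1.15, the recombination factors *Rad54b* and *Rad54l* by -1.03 and -0.99, and the fork remodeler *Zranb3* by -0.85. *Chd1l* (ALC1), a remodeler activated by poly(ADP-ribose) whose symbol the rule did not take, was 7.35 in H3 and 7.40 in H4 against 7.96, 7.76 and 8.27 in H5, scrambled and untransduced cells. Both knockdown lines lay below all controls, and the difference was -0.62 (limma adjusted p = 0.320). None of these genes passed the adjusted threshold.

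Among partner subunits, 6 of 24 other INO80, SRCAP and TIP60 subunits (25.0%) were lower and none was higher (median -0.18), beside 7.61% and 4.34% of all genes, shares that stand for the other lists here too. The 4 largest that met the rule for naming were *Yeats4* (-0.59), *Meaf6* (-0.50), *Brd8* (-0.42) and *Ing3* (-0.39), all subunits of the TIP60 acetyltransferase complex. *Meaf6* was 8.02 in H3 and 8.13 in H4 against 8.62, 8.48 and 8.63, with a limma adjusted p of 0.234. Of 12 NuRD subunits, 2 (16.7%) were lower (median -0.14), *Mbd3* by -0.47 and the deacetylase *Hdac1* by -0.27. Of 9 ISWI partners, 3 (33.3%) were lower and 1 (11.1%) was higher (median -0.15). The lower genes were *Hmgxb4* (-0.58) and the CHRAC histone-fold subunits *Pole3* (-0.36) and *Chrac1* (-0.26), and the higher gene was *Baz2a* (0.40), the TIP5 subunit of the nucleolar remodeling complex. *Baz2a* was 9.52 in H3 and 9.48 in H4 against 9.16, 8.98 and 9.16, above all controls. Of 16 other SWI/SNF subunits, 1 (6.25%) was lower (median 0.04), namely *Actl6a* (BAF53A), at 10.63 in H3 and 10.50 in H4 with controls at 11.06 ± 0.21 (SD, n = 3).

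**Figure D4:**
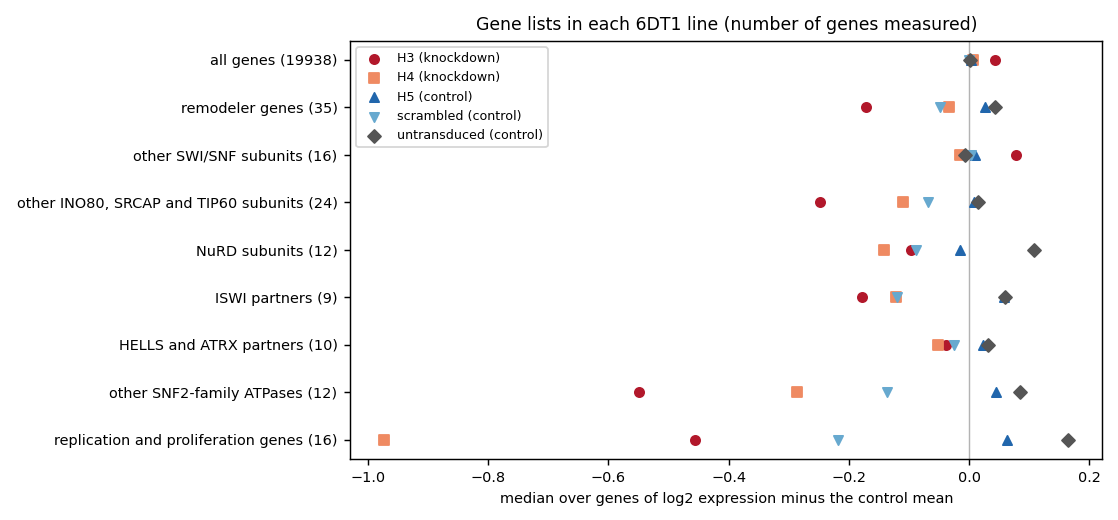
Median over the genes of each list of log2 expression minus the control mean on the horizontal axis, by line, with the number of genes measured in brackets. Replication and proliferation genes have the lowest median in H4 (-0.97), whereas the remodeler genes have theirs in H3 (-0.17).

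Markers of other cell types were checked for the same lines. None of the 4 fibroblast, 3 endothelial or 5 epithelial markers passed the test in either direction. The log2 summed level of the fibroblast markers was 8.95 to 8.99 in the knockdown lines and 8.76 to 8.81 in the controls. That of the epithelial markers was 12.751 to 12.957 against 12.958 to 13.043, and that of the endothelial markers 7.33 to 7.62 against 7.32 to 7.46. Of 4 leukocyte markers measured, *Cd68* and *Csf1r* passed the unadjusted threshold as higher, and *Cd68* had the lowest limma adjusted p of all genes (0.147). *Cd68*, also a lysosomal gene, was 10.96 in both knockdown lines and 10.01 ± 0.07 (SD, n = 3) in the controls, and *Csf1r* differed by 0.20 between values of 5.26 and 5.54. *Ptprc*, the defining leukocyte gene, was between 4.98 and 5.15 in all lines, below the array medians. The log2 summed level of these 4 genes, nearly all of it from *Cd68*, was 11.1 in both knockdown lines and 10.1 to 10.3 in the control lines, and their part in the remodeler results was not tested.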

How the data were processed

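The authors deposited normalized log2 expression values. Partek and RMA are named in the submitters' processing notes, with version numbers not given in the sources used here. RMA corrects background, sets arrays on a common scale and summarises the probes of a probe set, yet the median of H3 still differed from the rest, so counts that set 1 line against the others depend on the scaling. Of 35556 probe sets, 21789 had 1 symbol in the platform annotation and 1621 had several, which were not used. These include 12 listed as *Ino80* with *Rpl35a*, 3 with *Smarca5* pseudogenes and 1 for *Ino80e* with *Doc2a*, so *Ino80e* was not analysed here. The gene IDs of 21698 were found in RefSeq (assembly GRCm38.p6), used for names. For the 999 genes with more than 1 probe set, the one with the highest mean was taken. Levels of different probe sets were otherwise not compared, since hybridization differs between them. The summed marker levels, the gene pairs such as *Chd4* minus *Chd3* and the mentions of array medians are exceptions and carry that limit.

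Lines were grouped by the labels. The knockdown cohort was set against the control cohort in limma 3.58.1 (R 4.3.3, lmFit, eBayes, two-sided) over all 19938 genes with Benjamini-Hochberg adjustment, 3 residual and 1.58 prior degrees of freedom. The fit was tested on simulated data. Intervals are 95% intervals from limma, and the precision is limited by the 5 arrays. Members, gene lists and tests were chosen with earlier results of these data known. From each partner list up to 4 genes were named, those past an unadjusted p under 0.05 with both knockdown lines beyond all controls, by size. The lists were other SWI/SNF, other INO80, SRCAP and TIP60, NuRD, ISWI partners, HELLS and ATRX partners, other SNF2-family ATPases, replication and proliferation genes, and 4 sets of cell type markers. Alternatives were an unmoderated test, trend and robust options, subtracted array medians, requantiled values, omission of the dimmest 1 in 3 genes, probe set means, array weights, regression on ARID4B densitometry, a puromycin term and omission of each line in turn. The line counts and family counts after rescaling were added after the data had been seen. Promoter windows, 250 bases long, came from RefSeq.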

Additional observations from a re-analysis of the deposited data

How the results depend on the processing

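The 4 lower and 1 higher remodeler genes became 2 and 1 in the unmoderated test, 2 and 0 with array weights, and 7 and 1 by regression on ARID4B densitometry. In that order the lower shares were 5.71%, 5.71% and 20.0%, beside 4.19%, 4.54% and 8.24% of all genes. The higher shares were 2.86%, 0% and 2.86%, beside 2.94%, 1.92% and 4.69%. The higher count was 0 with trend and robust options, beside 4.28% of all genes, and 2 (5.71%) after quantile normalization, beside 6.52%. With a control line left out, 4 to 9 were lower (9 without scrambled cells), beside 3.89% to 8.005% of all genes. In those fits 1 was higher, beside 2.05% to 3.52%. *Chd3* passed under all 14 alternatives, though these overlap. It has 1 probe set, so taking probe set means leaves its values unchanged. *Hells* was missed in the unmoderated test, with array weights and without H3 or H4, as was *Smarca5*. *Ino80c* was missed after quantile normalization and without H3, and *Ino80b* with trend and robust options and with array weights. *Smarca4* and *Brd9* each passed under 4 alternatives and *Smarcb1* under 3. *Ino80d*, at 0.007, was 0.135 without H3 and turned to -0.12 without H4. The median of the 35 genes was -0.0262 after quantile normalization and -0.171 to -0.0335 with each line left out, the lower value without H4 and the higher without H3. Over all genes, 1517 lower calls became 835 in the unmoderated test, 905 with array weights and 1011 with puromycin as a covariate, and 776 to 1986 with a line left out. The 866 higher calls became 509 with array medians subtracted, 1300 after quantile normalization, 382 with array weights and 508 with puromycin, and 408 to 4901 with a line left out, the most without H4. Higher calls were 36.3% of all, 20.0% with array medians subtracted and 49.4% after quantile normalization. The cause of these changes was not tested. Leaving out a knockdown line assumes that the remaining one varies like the controls. Puromycin as a covariate gives the values without untransduced cells, the unselected line. No paired analysis was possible because the lines carry no shared replicate numbers. Low signal limits *Smarca1*.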
